A study of Mus musculus with 45 samples.

Results

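The mitosis genes are 40 named genes whose products drive a cell from the end of DNA replication through chromosome separation to cell division. They were found by matching their symbols in the deposited table of transcript abundance in TPM, a share of the library corrected for transcript length, where all 40 stood among 30317 symbols. All 40 also passed the filter on low values, which asked for 1 TPM or more in 3 or more of the 45 libraries and left 15614 genes for testing. The study cultured follicular B cells, the recirculating naive B cells of the spleen, and measured polyA RNA of cells sorted by flow cytometry. All mice were B6.Blimp1GFP/+, so every group shares a green fluorescent reporter in 1 Blimp1 allele, the gene of a plasma cell regulator. The cells lay on OP9-DL1, a mouse bone marrow stromal line that displays the Notch ligand Delta-like 1, or on plain OP9 stroma without that ligand. They received lipopolysaccharide (LPS) of Salmonella enterica, which acts through Toll-like receptor 4, or anti-IgM F(ab')2 fragments, which crosslink the B cell receptor. Each stimulus was given at 10 µg/mL for 20, 44 or 68 h on both stromas. Unstimulated cells on both stromas were sampled at 68 h alone, so stimulation could be compared with no stimulation at that time only. A last group held Blimp1+ cells sorted from the LPS culture on OP9-DL1, for which the labels give no time. The 15 groups had 3 libraries each. The ligand came on living stroma that shares the well with the B cells, so every ligand comparison sets one stromal line against another.

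Mitosis is set off when the kinase Cdk1 binds its A and B cyclins, whose genes are switched on late in the cell cycle and whose proteins are destroyed at division. Resting B cells hold these transcripts low, and mitogens such as LPS or receptor crosslinking bring the cells into the cycle. Transcription of many of these genes is held back in quiescence by the DREAM complex at promoter elements called CHR, and driven in cycling cells by B-Myb (Mybl2), FoxM1 and NF-Y at CCAAT boxes. Polo-like and Aurora kinases, the chromosomal passenger complex, the spindle checkpoint and the kinetochore then order the attachment and separation of chromosomes. The anaphase-promoting complex (APC/C), with Cdc20 and the ubiquitin-conjugating enzyme Ube2c, ends mitosis.

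Depth ran from 3070000 to 29100000 estimated reads per library with a median of 6740000, and the 40 genes together received between 2250 and 193000 of them. Every member had a median of at least 100 estimated reads, and 6 had fewer than 10 in some library (Kif4, Cdc25c, Kif23, Foxm1, Ttk and Plk1). In 10 of the 45 libraries Actb stood at 12400 to 85300 TPM, against 217 to 2970 TPM in the other 35. These high-Actb libraries were all 3 of LPS on OP9-DL1 at 20 h, all 3 of anti-IgM on OP9 at 20 h, and replicate 3 of 4 groups at 68 h, namely LPS on OP9-DL1, LPS on OP9, anti-IgM on OP9 and unstimulated on OP9. Cd79a, Cd79b and Ms4a1, which mark B cells, were above 0 in all 45 libraries, while Cd3e, which defines T cells, was listed at 0 in 33. Cd3g, another gene of the T cell receptor complex, was at 0 in 18 and reached 14.7 scaled TPM, which is TPM divided by a size factor per library. The 11 genes of a T cell list summed to 102 to 389 scaled TPM with anti-IgM, 15.6 to 57 with LPS, Blimp1+ cells included, and 16.3 to 159 without a stimulus, and their part in the comparisons between these was not tested. Genes of a stromal list took 0.144 to 1.98% of the TPM of unstimulated cells on OP9, and 0.00591 to 0.0617% elsewhere. All values below are scaled TPM, and a group value is the mean ± SD of 3 libraries. Differences are on the scale log2(scaled TPM + 1), with the standard error (SE) of 1 limma model over all 45 libraries, and calls were made below an adjusted p of 0.05 (Benjamini-Hochberg over the 15614 genes). The labels do not say whether replicates are separate animals or cultures, so the p-values measure the spread between these samples, which may be technical. In bulk RNA a smaller share of cycling cells and less of a transcript in each cycling cell cannot be told apart.

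The summed level of the 40 genes was lower in every unstimulated library than in any stimulated one, by a narrow margin. The highest unstimulated library, on OP9-DL1, held 950 scaled TPM. The lowest stimulated one, the high-Actb replicate 2 of anti-IgM on OP9 at 20 h, held 954. As a share of listed TPM before scaling these groups overlapped, at 0.0937 to 0.126% and 0.0892 to 0.147%. Unstimulated cells held 940, 665 and 950 scaled TPM in the 3 OP9-DL1 libraries, against 273, 329 and 727 in the OP9 libraries. With LPS the OP9-DL1 cultures averaged 3670 ± 272 at 20 h, 5340 ± 149 at 44 h and 3380 ± 56.7 at 68 h, and the OP9 cultures 2110 ± 443, 4970 ± 234 and 4480 ± 85.7. With anti-IgM the OP9-DL1 cultures averaged 2130 ± 160, 4510 ± 149 and 4700 ± 30.3 at the same times, and the OP9 cultures 1430 ± 434, 3670 ± 224 and 3030 ± 319. Blimp1+ cells stood at 3860 ± 48.2. The sum was thus highest at 44 h with LPS on either stroma, while with anti-IgM the OP9-DL1 libraries at 68 h (4670 to 4730) stood at or above those at 44 h (4380 to 4670). The ratio of this sum to that of 40 DNA replication genes, which act earlier in the cycle, was 0.435 ± 0.0334 in unstimulated cells on OP9-DL1 and 0.345 ± 0.102 on OP9. It averaged 0.419 to 0.574 in the 20 h groups, 0.663 to 0.827 at 44 h, 0.824 to 1 at 68 h with a stimulus and 1.01 in Blimp1+ cells.

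**Figure D1:**
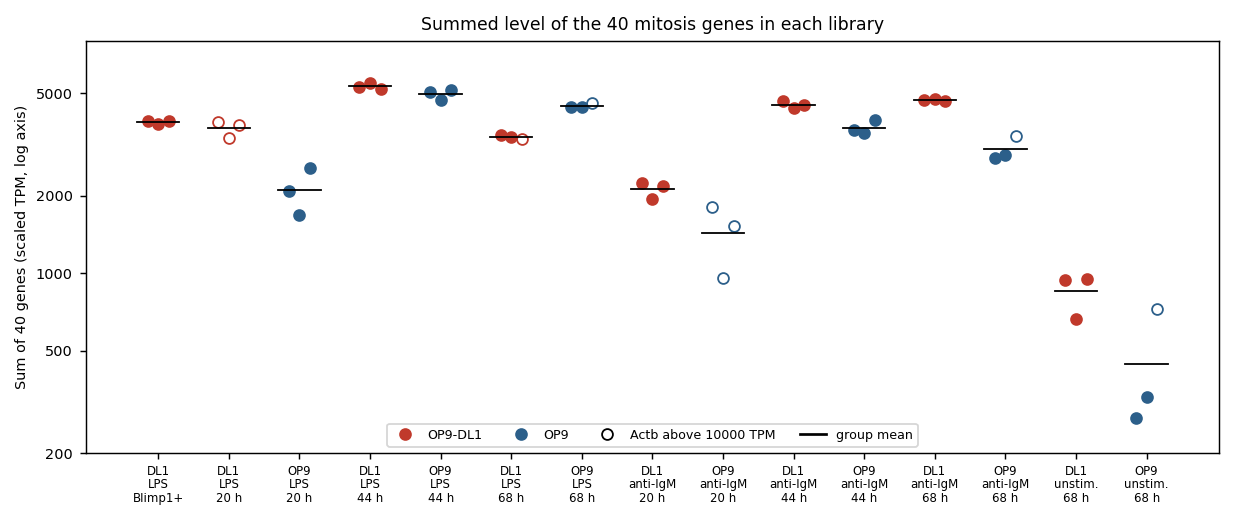
Summed level of the 40 mitosis genes in scaled TPM (log axis), 1 point per library with a line at each group mean, groups along the horizontal axis, OP9-DL1 in red, OP9 in blue and high-Actb libraries open. Unstimulated libraries lie at 950 or below, and libraries with LPS at 44 h lie between 4710 and 5500.

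Members differed in level and in range. Birc5 (survivin, of the chromosomal passenger complex) had the highest median over the 45 libraries at 313 scaled TPM, followed by Cdc20 at 255 and Cenpa, the centromeric histone H3, at 223. The transcription factor Foxm1 had the lowest median at 7.22, and the kinetochore motor Cenpe stood at 11.4. The lowest group mean fell on unstimulated OP9 cells for 36 of 40 members, on unstimulated OP9-DL1 cells for Top2a and Cdk1, and on LPS-treated OP9 cells at 20 h for Cenpa and Cdc25b. For Top2a and Cenpa this turns on the high-Actb replicate 3 of unstimulated OP9 cells. Top2a stood at 129 there, against 8.97 and 6.32 in its partners, and Cenpa at 135, against 9.04 and 29. The highest group mean fell on LPS on OP9-DL1 at 44 h for 12 members, anti-IgM on OP9-DL1 at 68 h for 8, LPS on OP9 at 44 h for 6 and anti-IgM on OP9-DL1 at 44 h for 5. The other 9 members peaked in 5 further groups. The ratio of the highest to the lowest group mean ran from 4.69 for the kinetochore subunit Spc25 to 170 for the Polo-like kinase Plk1. Plk1 averaged 1.36 scaled TPM in its lowest group, unstimulated OP9 cells, so the size of that ratio rests on few reads. Across the 15 group means each member's centred log2 level was set beside the median of the other members, which comes from the same libraries. Pearson's r lay between 0.80 and 0.99 for 39 members, as a description over groups that share stroma and stimulus, and was 0.47 for Cdc25b, a phosphatase that activates Cdk1. Reads of Ccnb1 and Kif4 could be shared with their annotated pseudogenes, so their levels are uncertain to that extent.

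**Figure D2:**
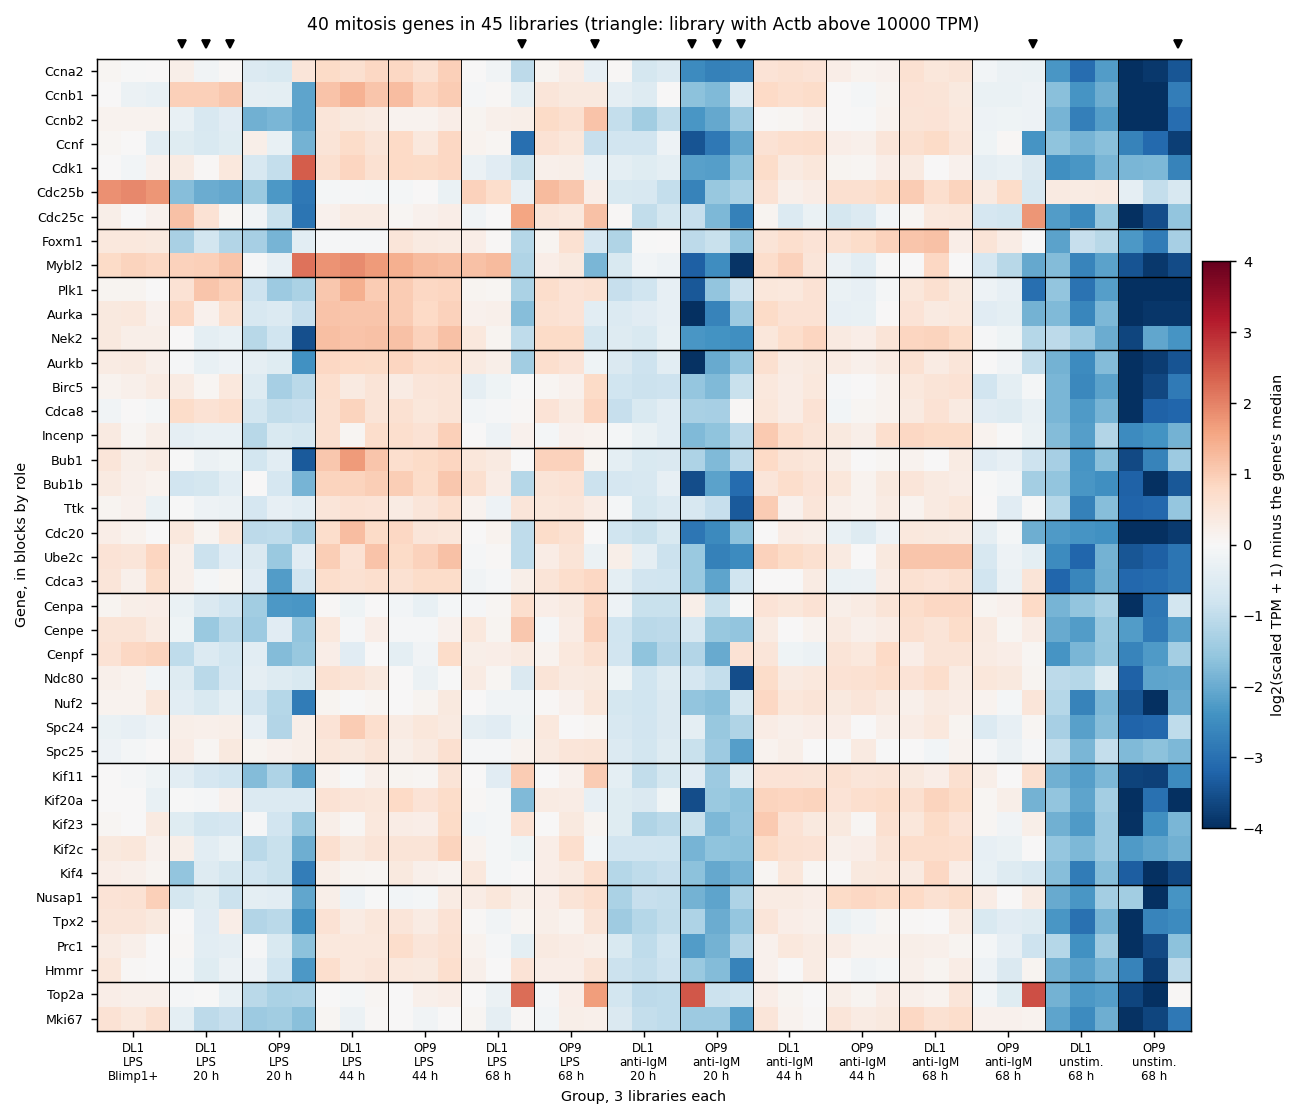
Each of the 40 members (rows, in blocks by role) in each of the 45 libraries (columns, 3 per group), coloured by log2(scaled TPM + 1) minus the gene's median over the libraries, with triangles above high-Actb libraries. Unstimulated libraries on the right are blue for nearly all members, and Cdc25b is highest in the Blimp1+ libraries on the left.

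Promoter sequences of 6 members are shown because the elements through which cell cycle genes are held back and driven lie close to the start, and because these 6 differ in the elements they hold. They come from RefSeq (GRCm38.p6) and are the 250 bases before the start, 5′ to 3′ on the gene's strand, with matches to TTTGAA (the CHR core), TTCGAA (a variant of it) and CCAAT (the NF-Y box) on either strand in capitals. Cdc20 lies at chr4:118437344-118437593 (minus strand), Ube2c at chr2:164769679-164769928 (plus strand), Ccnb2 at chr9:70421555-70421804 (minus strand), Ccnb1 at chr13:100786487-100786736 (minus strand), Top2a at chr11:99024190-99024439 (minus strand) and Mybl2 at chr2:163054385-163054634 (plus strand).
Cdc20: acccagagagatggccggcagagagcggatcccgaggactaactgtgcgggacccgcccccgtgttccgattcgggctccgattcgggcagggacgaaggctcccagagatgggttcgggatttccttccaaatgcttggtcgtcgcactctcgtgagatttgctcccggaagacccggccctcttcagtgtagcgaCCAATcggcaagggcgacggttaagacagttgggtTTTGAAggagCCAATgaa
Ube2c: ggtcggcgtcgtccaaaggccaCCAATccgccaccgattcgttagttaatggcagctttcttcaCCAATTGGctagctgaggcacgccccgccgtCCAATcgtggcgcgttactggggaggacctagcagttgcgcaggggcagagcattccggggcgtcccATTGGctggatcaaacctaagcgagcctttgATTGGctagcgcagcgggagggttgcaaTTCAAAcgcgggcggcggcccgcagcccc
Ccnb2: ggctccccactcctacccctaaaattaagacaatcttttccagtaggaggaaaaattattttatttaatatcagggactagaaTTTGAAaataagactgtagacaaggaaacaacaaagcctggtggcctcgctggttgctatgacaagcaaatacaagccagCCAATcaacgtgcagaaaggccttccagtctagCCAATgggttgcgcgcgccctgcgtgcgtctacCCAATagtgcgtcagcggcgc
Ccnb1: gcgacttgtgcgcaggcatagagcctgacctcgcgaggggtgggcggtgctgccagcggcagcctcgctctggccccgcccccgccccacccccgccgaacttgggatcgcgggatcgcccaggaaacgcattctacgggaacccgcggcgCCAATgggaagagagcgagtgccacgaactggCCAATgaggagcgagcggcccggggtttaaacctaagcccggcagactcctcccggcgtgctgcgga
Top2a: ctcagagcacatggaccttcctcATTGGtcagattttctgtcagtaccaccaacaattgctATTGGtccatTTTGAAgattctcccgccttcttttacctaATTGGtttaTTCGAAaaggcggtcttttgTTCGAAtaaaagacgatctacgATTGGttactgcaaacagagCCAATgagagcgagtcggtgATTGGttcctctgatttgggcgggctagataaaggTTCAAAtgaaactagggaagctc
Mybl2: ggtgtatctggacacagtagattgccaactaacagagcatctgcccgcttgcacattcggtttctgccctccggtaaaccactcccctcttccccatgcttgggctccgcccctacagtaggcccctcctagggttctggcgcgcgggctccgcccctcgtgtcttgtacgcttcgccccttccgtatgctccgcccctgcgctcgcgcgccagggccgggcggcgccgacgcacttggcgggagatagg

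In these windows Cdc20 has 1 TTTGAA and 2 CCAAT, and Ube2c has 1 TTTGAA, read on the other strand as TTCAAA, and 6 CCAAT, with 1 pair overlapping as the palindrome CCAATTGG. Ccnb2 has 1 TTTGAA and 3 CCAAT, and Ccnb1 has 2 CCAAT and neither TTTGAA nor TTCGAA. Top2a has 2 TTTGAA, 2 TTCGAA and 6 CCAAT, and Mybl2 has none of the 3 motifs. No other form of the CHR was searched for, so its absence from a window is not shown. A RefSeq promoter, here 250 bases before to 50 after the start, was found for 32 of the 40 members, and 30 of these starts lay within 50 bases of a GENCODE start. TTTGAA on either strand occurred in 23 of 32 member promoters (71.9%), against 14.8% of the 9977 promoters of genes tested and 20.2% of all 27025 promoters of the same length. It was centred within 50 bases of the start in 21 (65.6%), against 3.98% and 5.94%. CCAAT occurred in 26 (81.2%), against 43.3% and 41.1%, and at least 2 copies in 19 (59.4%), against 16.6% and 13.3%. Birc5, Nusap1, Nuf2 and Mybl2 had none of the 3 motifs in this window, as did 48.1% of the promoters of genes tested. A match is a stretch of letters and was not shown here to be bound.

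On OP9 stroma at 68 h, LPS raised every one of the 40 mitosis genes, and anti-IgM raised all but Cdc25b. With LPS all 40 members were called higher and 0 lower, against 9.97% of all genes tested called higher and 21.2% lower, and the median difference was 3.32 on the log2 scale, against -0.30 over all genes. With anti-IgM 39 were called higher and 0 lower, against 7.97% and 16.4% of all genes, with a median of 2.87 against -0.11. Both comparisons use the same 3 unstimulated libraries. Plk1, which matures centrosomes and promotes mitotic entry, had 166, 148 and 155 scaled TPM in the LPS libraries and 88.5, 81.3 and 11.6 in the anti-IgM libraries, against 1.99, 1.14 and 0.953 in the unstimulated ones. The groups did not overlap, and the lowest anti-IgM value is that of the high-Actb replicate 3. The difference was 6.08 ± 0.49 (SE, limma adjusted p = 9.1e-12) with LPS and 4.29 ± 0.49 (adjusted p = 2.1e-08) with anti-IgM. The size of both rests on few reads, since the unstimulated level was near 1 TPM and Plk1 had as few as 4.96 estimated reads in a library. Ccnb2, one of the B cyclins, had 299, 275 and 384 with LPS and 151, 156 and 152 with anti-IgM, against 5.34, 6.58 and 20.4 without a stimulus. It rose by 4.97 ± 0.27 (adjusted p = 1.5e-15) and 3.93 ± 0.27 (adjusted p = 6e-13).

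Of the other 4 members given in most comparisons, Ccnb1, the main mitotic B cyclin, averaged 261 ± 11.1 with LPS and 163 ± 3.89 with anti-IgM, against 15.9 ± 10.4 without a stimulus. Mki67, which coats mitotic chromosomes and marks cycling cells, averaged 28.3 ± 3.77 and 29.3 ± 0.358, against 1.54 ± 1.05. Aurkb, the kinase of the chromosomal passenger complex, averaged 169 ± 48.4 and 104 ± 33.4, against 8.01 ± 2.96. Foxm1, a driver of mitotic gene transcription, averaged 7.82 ± 3.71 and 9.05 ± 1.69, against 1.04 ± 1.1. These 4 genes were called higher with both stimuli. The exception Cdc25b had 38.5, 49.7 and 18.7 with anti-IgM, against 22.8, 14.7 and 18.8 without, so its groups overlapped. Kif4, a chromosome-bound motor, was listed at 0 in 1 unstimulated OP9 library and at 0.751 and 0.392 in the others, so its size of change rests on few reads. The unstimulated OP9 group also carried the highest share of stromal transcripts (0.144 to 1.98%, against 0.00786 to 0.029% with either stimulus at 68 h) and summed B cell markers of 647 to 3770 scaled TPM, against 4390 to 7320 with a stimulus. The part of these in the result was not tested.

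On OP9-DL1 stroma at 68 h the same stimuli also raised most members, from a higher unstimulated level. With LPS 34 were called higher and 0 lower, against 4.94% of all genes called higher and 2.93% lower, with a median of 1.99 against 0.00 over all genes. Kif20a, Nek2, Ccnf, Ndc80, Foxm1 and Cdc25b were not called. With anti-IgM 39 were called higher and 0 lower, again all but Cdc25b, against 5.19% and 4.21%, with a median of 2.43 against -0.13. Ube2c, which charges the APC/C with ubiquitin, had 285, 283 and 283 scaled TPM with anti-IgM, against 22.1, 13.8 and 34.8 unstimulated. The groups lay far apart, and the difference was 3.63 ± 0.34 (limma adjusted p = 5.5e-09). Cdca3, a mitotic entry factor that is itself a target of the APC/C, averaged 133 ± 3.74 with anti-IgM, against 14.9 ± 6.85, a rise of 3.17 ± 0.33 (adjusted p = 3.4e-08). With LPS the largest differences were those of Top2a (2.79 ± 0.76, adjusted p = 0.016), the topoisomerase that untangles chromosomes, and Mybl2 (2.59 ± 0.54, adjusted p = 0.0013). Top2a had 125, 106 and 589 with LPS, against 33.1, 24.7 and 26.4 unstimulated, so its group mean of 273 ± 273 comes mainly from the high-Actb replicate 3, without which the difference was 2.01 and no longer called. The call was also lost without replicate 2 or replicate 3 of the unstimulated cells. Mybl2 had 125, 132 and 23.4 with LPS, against 15.6, 7.99 and 11.6, and here replicate 3 was the lowest of the LPS group yet above the unstimulated libraries. With LPS Plk1 averaged 86.6 ± 38.7 and Mki67 24.8 ± 4.32, against 22.5 ± 10.6 and 4.98 ± 1.12 in unstimulated cells, and both were called higher.

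**Figure D3:**
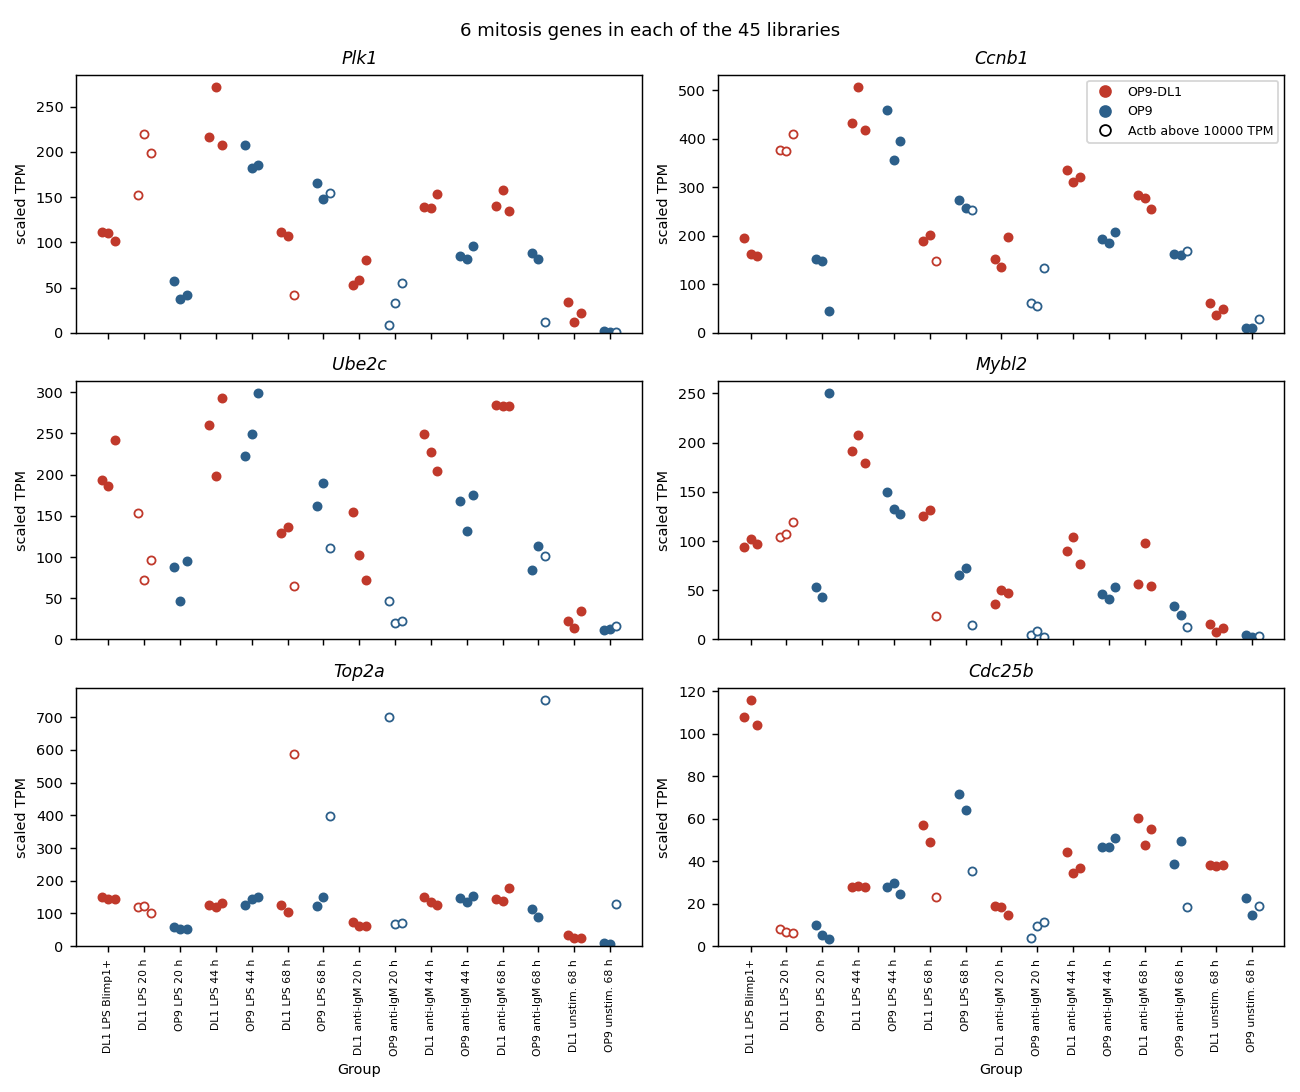
Scaled TPM (linear axes) of Plk1, Ccnb1, Ube2c, Mybl2, Top2a and Cdc25b in every library, 1 panel per gene, groups along the horizontal axis, OP9-DL1 in red, OP9 in blue and high-Actb libraries open. Plk1 in unstimulated OP9 libraries lies at 0.953 to 1.99, and Cdc25b is highest in the 3 Blimp1+ libraries at 104 to 116.

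Between 20 and 44 h the mitosis genes were higher at the later time. With LPS on OP9 25 of 40 were called higher and 0 lower, against 0.973% of all genes called higher and 0.672% lower, with a median of 1.56 against 0.00. All 40 differences were positive. Nek2, a centrosome kinase, had 84.9, 71.6 and 85 scaled TPM at 44 h, against 16.5, 20.7 and 2.35 at 20 h, a difference of 2.91 ± 0.46 (limma adjusted p = 0.00024). Bub1, a spindle checkpoint kinase, had 41.5, 44.5 and 47.5 at 44 h, against 14.9, 19 and 1.58 at 20 h, a difference of 2.28 ± 0.45 (adjusted p = 0.0038). Neither gene overlapped between times, and in both the low value of replicate 3 at 20 h widened the gap. Without that library Bub1 differed by 1.35 and was not called, and 17 members were called. In replicate 3 at 20 h Cdk1 stood at 922, against 109 and 89 in its partners, and Mybl2 at 250, against 53.2 and 43.4 (both singled out after their values were seen). Leaving out any one of the 44 h libraries gave 16 calls. Fitting only the groups compared gave 0 calls, with Nek2 at a limma adjusted p of 0.34 and Bub1 at 0.47. Plk1 (192 ± 13.9 against 45.2 ± 10.8), Ccnb1 (402 ± 52.1 against 115 ± 60.8), Mki67 (25.3 ± 1.48 against 8.58 ± 0.95), Aurkb (216 ± 16.4 against 70.9 ± 41.8) and Foxm1 (9.75 ± 0.587 against 2.9 ± 1.99) were each called higher at 44 h.

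With anti-IgM on OP9-DL1 all 40 differences between 44 and 20 h were positive with a median of 1.11 against 0.00 over all genes. Only Kif2c, a kinesin that depolymerizes microtubules at kinetochores, was called, against 0.0256% of all genes called higher and 0.032% lower. It had 44.5, 39.3 and 38.6 scaled TPM at 44 h, against 14.7, 14.8 and 14.4 at 20 h, a difference of 1.42 ± 0.23 (limma adjusted p = 0.0023). The 3 libraries at 44 h lay above all 3 at 20 h in 39 members, against 10.5% of all genes, and 37 members had an unadjusted p below 0.05. Neither of these groups holds a high-Actb library, and with all 10 such libraries left out of the model 22 members were called, Kif23 (1.59, adjusted p = 0.011), Tpx2 (1.51, adjusted p = 0.022) and Kif2c (1.42, adjusted p = 0.00022) with the largest differences. The share of all genes called in that refit is not given here. The 20 to 44 h step with LPS on OP9-DL1 and with anti-IgM on OP9 was not tested, because all 20 h libraries of those groups are high in Actb and none at 44 h is.

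Between 44 and 68 h few members were called, and the steps of different stimuli and stromas were not tested against each other. With LPS on OP9-DL1 5 members were called lower and 0 higher at 68 h, against 3.37% of all genes called lower and 3.39% higher, and the median was -0.54 against 0.17 over all genes. These were Aurka, Ccnb1, Ube2c, Cdc20 and Ccna2. Aurka, the spindle pole kinase, had 100, 102 and 26.7 scaled TPM at 68 h, against 198, 191 and 190 at 44 h, a difference of -1.56 ± 0.44 (limma adjusted p = 0.023). Ccnb1 had 189, 201 and 147 at 68 h, against 432, 507 and 417 at 44 h, a difference of -1.34 ± 0.33 (adjusted p = 0.0095). Both sets of libraries were apart, and replicate 3 at 68 h, a high-Actb library, was the lowest in both genes. Without that library 0 members were called by limma, with Ccnb1 at -1.21 and Aurka at -0.93, and leaving out either replicate 1 or replicate 3 at 44 h left 1 call and replicate 2 left 2. With all high-Actb libraries left out of the model 7 members were called lower, among them Plk1 (-1.07, adjusted p = 0.004), Ccnb1 (adjusted p = 0.0079), Aurka (adjusted p = 0.0019) and Spc24 (-1.17, adjusted p = 0.0019), and Cdc25b was called higher (0.89, adjusted p = 0.014). Leaving out replicate 1 at 68 h gave 8 calls. Plk1 had 111, 107 and 42 at 68 h, against 216, 272 and 208 at 44 h, and was not called with all libraries in (adjusted p = 0.054).

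With LPS on OP9 Mybl2 alone was called lower at 68 h and 0 members higher, against 3.73% and 3.15% of all genes. It had 65.6, 72.5 and 14.7 scaled TPM at 68 h, against 150, 133 and 128 at 44 h, a difference of -1.69 ± 0.54 (limma adjusted p = 0.049). The call was lost when replicate 3 at 68 h was left out (-0.98) and when any 44 h library was. The median of the 40 was -0.15 against 0.09 over all genes, and Plk1 (156 ± 9.3 against 192 ± 13.9) and Mki67 (28.3 ± 3.77 against 25.3 ± 1.48) were not called. With anti-IgM on OP9 0 members were called by limma and 3 had an unadjusted p below 0.05, against 0.0128% of all genes called. Their median was -0.44 against 0.09, and in 27 members the 68 h libraries lay below all 44 h libraries, against 6.96% of all genes. With anti-IgM on OP9-DL1 0 members were called by limma and 0 had an unadjusted p below 0.05, against 0.173% of all genes called, and the median was 0.02. Plk1 averaged 144 ± 12 at 68 h, against 143 ± 8.72 at 44 h, and Mki67 43.3 ± 3.44, against 30.9 ± 5.18.

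The Notch ligand comparison set OP9-DL1 against OP9 at the same stimulus and time. Mitosis genes were higher on OP9-DL1 in unstimulated cells and in both 20 h cultures, did not pass the test at 44 h, and at 68 h passed it for 2 genes with anti-IgM and for none with LPS. Over the 7 comparisons 31 members were called higher on OP9-DL1 at least once and 0 were called lower. The share of all genes called at least once, or in several comparisons together, was not counted. Counts over several comparisons can therefore not be set against it. In both 20 h comparisons the libraries of one stroma are all high in Actb and those of the other are not. Stroma and this property cannot be told apart there. In single comparisons the share of all genes called reached 9.68% higher (anti-IgM at 20 h) and 18.2% lower (unstimulated). Ccnb1, Ccnb2, Cdc20 and Nek2 were called in unstimulated cells and in both 20 h cultures. Bub1, Cenpe, Cenpf, Foxm1, Hmmr, Kif23, Nusap1, Spc24 and Top2a were called in none of the 7. Mybl2 was the 1 member with a positive difference in all 7, and it was called in 2.

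**Figure D4:**
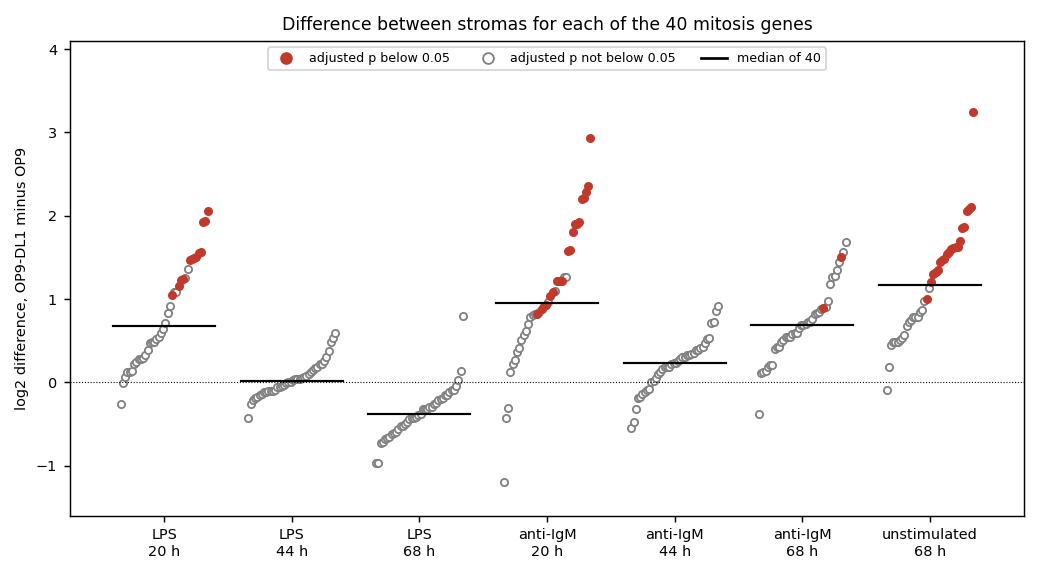
Difference between OP9-DL1 and OP9 (log2 of scaled TPM + 1) of each of the 40 members, sorted within each of the 7 stimulus and time pairs along the horizontal axis, with called members filled and a line at the median of the 40. The medians are 1.17 unstimulated, 0.68 and 0.95 at 20 h with LPS and anti-IgM, and -0.39 and 0.69 at 68 h with LPS and anti-IgM.

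In unstimulated cells at 68 h 20 members were called higher on OP9-DL1 and 0 lower, against 8.59% of all genes called higher and 18.2% lower. The median was 1.17, against -0.21 over all genes. By role, all 3 mitotic kinases were called, 3 of 4 passenger complex members, 4 of 7 genes of the cyclin and Cdk1 group, 3 of 5 spindle motors, 2 of 7 centromere and kinetochore members, 1 of 3 checkpoint genes and 1 of 4 spindle assembly genes. Plk1 had 33.6, 12.4 and 21.6 scaled TPM on OP9-DL1, against 1.99, 1.14 and 0.953 on OP9, a difference of 3.24 ± 0.49 (limma adjusted p = 3.5e-06). Kif20a, a motor of the central spindle, had 15.9, 10.7 and 18.4, against 1.63, 5.32 and 1.96, a difference of 2.10 ± 0.44 (adjusted p = 0.0004). Neither gene overlapped between stromas. Ccnb1 (49.1 ± 11.7 against 15.9 ± 10.4), Mki67 (4.98 ± 1.12 against 1.54 ± 1.05) and Aurkb (31.1 ± 8.32 against 8.01 ± 2.96) were called higher, and Foxm1 (2.33 ± 1.29 against 1.04 ± 1.1) was not. Replicate 3 on OP9 is a high-Actb library, and its mitosis sum of 727 stood above its partners. With all high-Actb libraries left out 34 members were called, and with only the groups compared in the model 3 were. Kif20a lost its call in the latter. The share of all genes called in these refits is not given here. Stromal transcripts were 0.0244 to 0.0551% on OP9-DL1 and 0.144 to 1.98% on OP9, and B cell markers summed to 6300 to 6630 and 647 to 3770 scaled TPM, and their part in the difference was not tested. In the same comparison the 16 cell cycle inhibitor genes, chosen as the opposite arm of the pathway, had 1 called higher and 7 lower, with a median of -1.40, beside the 8.59% and 18.2% of all genes.

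At 20 h with LPS 13 members were called higher on OP9-DL1 and 0 lower, against 3.84% of all genes called higher and 4.75% lower, with a median of 0.68 against 0.00. Plk1 had 152, 220 and 199 scaled TPM on OP9-DL1, against 57.3, 36.9 and 41.4 on OP9, a difference of 2.06 ± 0.49 (limma adjusted p = 0.0069). Ccnb1 had 376, 375 and 409, against 151, 148 and 44.5, a difference of 1.94 ± 0.33 (adjusted p = 0.00027). Both were apart in all libraries. Aurkb (114 ± 10.6 against 70.9 ± 41.8), Mki67 (15 ± 4.11 against 8.58 ± 0.95) and Foxm1 (2.98 ± 0.835 against 2.9 ± 1.99) were not called. At 20 h with anti-IgM 20 members were called higher on OP9-DL1 and 0 lower, against 9.68% and 10.4% of all genes, with a median of 0.95 against -0.03. Mybl2 had 35.8, 50.6 and 47 on OP9-DL1, against 4.74, 8.89 and 2.65 on OP9, a difference of 2.93 ± 0.54 (adjusted p = 0.0012). Bub1b, the checkpoint protein BubR1, had 35.2, 35.7 and 44.7, against 3.93, 12.2 and 5.86, a difference of 2.36 ± 0.43 (adjusted p = 0.0012). No library of one stroma reached into the range of the other for these genes. Ccnb1 (162 ± 32.8 against 83.6 ± 43.3), Mki67 (14.2 ± 2.66 against 7.48 ± 2.36) and Aurkb (84.4 ± 11.8 against 27.2 ± 18.4) were called higher, while Plk1 (64.3 ± 14.7 against 32.5 ± 23.3) and Foxm1 (5.66 ± 2.68 against 2.7 ± 0.863) were not.

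At 20 h the high-Actb libraries are exactly the OP9-DL1 libraries with LPS and exactly the OP9 libraries with anti-IgM, so in neither comparison can the stroma and this property be told apart. Top2a stood the other way from most members with anti-IgM, at 75.5, 60.3 and 60.9 on OP9-DL1, against 700, 68.9 and 71.2 on OP9, and was not called. One library sets that OP9 mean. With LPS 8 members were called without replicate 1 or replicate 3 on OP9-DL1, and with anti-IgM 13 without replicate 1 on OP9.

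At 44 h no library is high in Actb, so the group means of the stromas could be compared without that confound. The spread behind the calls was still estimated over all 45 libraries, high-Actb ones included. Fitting only the groups compared gave more calls with anti-IgM, counted under the alternatives below. With LPS 0 members were called by limma and 0 had an unadjusted p below 0.05, against 0.16% of all genes called, and the median was 0.02. Plk1 had 216, 272 and 208 scaled TPM on OP9-DL1, against 208, 182 and 186 on OP9, and Ccnb1 432, 507 and 417, against 458, 355 and 395. Their ranges touched or overlapped. With anti-IgM 0 members were called by limma and 1 had an unadjusted p below 0.05, against 0.845% of all genes called, with a median of 0.23 against -0.05. Plk1 had 139, 138 and 153 on OP9-DL1, against 85.4, 81.2 and 95.8 on OP9 (0.71 ± 0.49, adjusted p = 0.86), and Ccnb1 336, 310 and 321, against 194, 185 and 208 (0.72 ± 0.33, adjusted p = 0.53). These 2 genes did not overlap between stromas although they did not pass the test, and the OP9-DL1 libraries lay above all OP9 libraries in 16 members, against 15% of all genes. With all high-Actb libraries left out of the model Aurka was called (0.86, adjusted p = 0.0035).

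At 68 h 2 members were called between the stromas with anti-IgM and 0 with LPS. With anti-IgM Ube2c and Kif2c were called higher on OP9-DL1 and 0 members lower, against 0.679% of all genes called higher and 0.64% lower, and the median was 0.69 against -0.16. Ube2c had 285, 283 and 283 scaled TPM on OP9-DL1, against 84.8, 114 and 101 on OP9, a difference of 1.51 ± 0.34 (limma adjusted p = 0.019). Kif2c had 42, 42.6 and 41.3, against 20.1, 21.2 and 25.6, a difference of 0.89 ± 0.23 (adjusted p = 0.042). For these genes all OP9-DL1 libraries lay above all OP9 libraries, as in 30 members, against 9.59% of all genes, and 19 members had an unadjusted p below 0.05. Both calls rest on a narrow margin, since 0 members were called without any single OP9-DL1 library. Without replicate 1 on OP9 Ube2c (limma adjusted p = 0.052) and Kif2c (adjusted p = 0.072) both lost their call, and the 1 member called was another. Kif2c also lost its call without replicate 2 on OP9 (limma adjusted p = 0.061). With the high-Actb libraries left out 7 were called, namely Ube2c, Ccnb2, Aurka, Top2a, Birc5, Kif2c and Cdca8. Plk1 had 140, 158 and 135, against 88.5, 81.3 and 11.6 (1.68 ± 0.49, adjusted p = 0.072), where the lowest value is that of the high-Actb library. With LPS 0 members were called by limma and 2 had an unadjusted p below 0.05, against 0.0512% of all genes called. Their median was -0.39 against 0.07, 37 of 40 differences were negative, and in 13 members the OP9-DL1 libraries lay below all OP9 libraries, against 3.8% of all genes. Plk1 had 111, 107 and 42 on OP9-DL1, against 166, 148 and 155 on OP9 (-0.97 ± 0.49, adjusted p = 1), and Ccnb1 189, 201 and 147, against 274, 257 and 253 (-0.56 ± 0.33, adjusted p = 1).

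Whether the ligand effect differed between stimuli was tested as a difference of differences. At 68 h the effect with LPS was lower than that in unstimulated cells for 20 members and higher for 0, against 4.16% of all genes called lower and 12.3% higher. The median difference of effects was -1.41, against 0.32 over all genes, and all 40 were negative. Plk1 (-4.20 ± 0.69, limma adjusted p = 4.1e-05) and Cdc20, the activator of the APC/C (-2.82 ± 0.52, adjusted p = 0.00016), differed most. Cdc20 had 52.3, 48.6 and 46.6 scaled TPM on OP9-DL1 and 4.67, 15.1 and 17.1 on OP9 without a stimulus, and 258, 284 and 126 on OP9-DL1 and 423, 390 and 258 on OP9 with LPS. For this gene the difference between stromas was upward and called without a stimulus. With LPS it was downward but not called, and the libraries of the stromas overlapped. The test of the difference of effects does not show that the effect with LPS is itself downward. The effect with anti-IgM was lower than that in unstimulated cells for Ccnb2 (-1.17 ± 0.38, adjusted p = 0.031) and higher for 0, against 4.59% of all genes called lower and 11.4% higher, with a median of -0.49 against 0.01. Between LPS and anti-IgM 0 members differed in their ligand effect at 68 h by limma and 20 had an unadjusted p below 0.05, against 0.173% of all genes called. There 39 of 40 were negative, with a median of -1.04 against 0.23. At 44 h 0 were called and 0 had an unadjusted p below 0.05, against 0.0961%, with a median of -0.23 against 0.06. Each of the 68 h tests includes groups with 1 high-Actb library, and leaving out replicate 2 of anti-IgM on OP9 gave 2 calls between the stimuli and replicate 1 gave 1. Without those libraries Ccnb2 (-1.24, adjusted p = 0.025), Kif2c (-1.42, adjusted p = 0.042) and Cdca8 (-1.44, adjusted p = 0.013) were called in the LPS against anti-IgM test at 68 h, and 18 members in that of anti-IgM against unstimulated. The Ccnb2 call against unstimulated cells was lost without any of 8 single libraries, and 10 members were called without replicate 3 of unstimulated OP9 cells.

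The stimuli themselves were compared on the same stroma and at the same time. Few members were called between them by the model over all libraries. Fitting only the groups compared gave more calls at 44 h and fewer at 68 h on both stromas, with counts under the alternatives below. On OP9 at 44 h Ccnb1 alone was called higher with LPS and 0 lower, against 4.16% and 4.19% of all genes, at 458, 355 and 395 scaled TPM, against 194, 185 and 208 with anti-IgM (1.03 ± 0.33, limma adjusted p = 0.047). The groups lay apart, but the call was lost without any single library. With all high-Actb libraries left out of the model, none of which belongs to these groups, 8 members were called, including Plk1 (1.13, adjusted p = 0.0005) and Mybl2 (1.52, adjusted p = 0.0038) higher with LPS and Cdc25b (-0.80, adjusted p = 0.0086) and Ndc80 (-0.70, adjusted p = 0.019) lower. On OP9 at 68 h Plk1, Ccnb2, Cdc20 and Cdca8 were called higher with LPS and 0 lower, against 2.48% and 1.92%. Plk1 differed by 1.80 ± 0.49 (adjusted p = 0.025) and Cdc20, at 423, 390 and 258 with LPS, against 199, 243 and 65.7 with anti-IgM, by 1.24 ± 0.37 (adjusted p = 0.043). Without the high-Actb replicate 3 of anti-IgM Plk1 differed by 0.87 and Cdc20 by 0.67, and neither was called. Leaving out replicate 1 or replicate 2 of LPS left 2 calls, and replicate 3 left 1.

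On OP9-DL1 at 44 h 0 members were called by limma between the stimuli and 1 had an unadjusted p below 0.05, against 2.84% of all genes called, with a median of 0.13 against 0.00. On OP9-DL1 at 68 h Ube2c was called lower with LPS and 0 members higher, against 1.59% and 2.68% of all genes, at 129, 136 and 65.3 scaled TPM, against 285, 283 and 283 with anti-IgM (-1.43 ± 0.34, limma adjusted p = 0.0082). Even the highest LPS library was below every anti-IgM library. Without the high-Actb replicate 3 of LPS the difference was -1.10 and not called, and without replicate 1 4 members were called. The LPS libraries lay below all anti-IgM libraries in 23 members, against 11.7% of all genes, and the median was -0.51 against 0.10. Mki67 had 27.7, 19.9 and 26.9 with LPS, against 47, 40.2 and 42.8 with anti-IgM (-0.79 ± 0.25, adjusted p = 0.06). Foxm1 had 8.78, 7.42 and 2.75, against 16.8, 17.7 and 8.83, and was not called.

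In Blimp1+ cells the 40 genes summed to 3860 ± 48.2 scaled TPM, against 5340 ± 149 in the LPS culture on OP9-DL1 at 44 h and 3380 ± 56.7 in that at 68 h. Their summed plasma cell genes, at 7670 to 8530 scaled TPM, against 219 to 1160 in all other libraries, go with a sort on the plasma cell regulator. Against the LPS culture on OP9-DL1 at 44 h 1 member was called higher and 2 lower, against 7.86% and 4.43% of all genes, with a median of -0.28 against 0.13. The sort lay above all 3 culture libraries in 8 members and below all 3 in 21, against 30.6% and 17% of all genes. Cdc25b had 108, 116 and 104 in Blimp1+ cells, against 28.1, 28.4 and 28 in the culture, a difference of 1.91 ± 0.34 (limma adjusted p = 0.00012). Ccnb1 had 195, 163 and 158, against 432, 507 and 417, a difference of -1.39 ± 0.33 (adjusted p = 0.0036). Cdca8, the borealin of the passenger complex, had 163, 178 and 167, against 276, 334 and 256, a difference of -0.76 ± 0.24 (adjusted p = 0.033). None of the 3 overlapped, and the Cdca8 call was lost without 5 of the 6 libraries singly. Plk1 had 111, 110 and 102, against 216, 272 and 208, and Mki67 39.6, 35.7 and 40.9, against 27.9, 22 and 27.1, and neither was called although neither overlapped. With the high-Actb libraries, all outside these groups, left out of the model 11 members were called, Plk1 (-1.09, adjusted p = 0.00053) among those lower and Mki67 (0.58, adjusted p = 0.014) and Cdc25b among those higher.

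Against the same culture at 68 h Cdc25b alone was called higher and 0 members lower, against 2.56% and 0.275% of all genes. It differed by 1.41 ± 0.34 (limma adjusted p = 0.012) from libraries at 57.2, 48.9 and 23.4. The sort lay above all 3, and without the high-Actb replicate 3 the difference was 1.03 and not called in a model that kept the other high-Actb libraries. It was also not called without Blimp1+ replicate 2 (1.36). Plk1 (108 ± 5.02 against 86.6 ± 38.7), Ccnb1 (172 ± 19.9 against 179 ± 28) and Aurkb (157 ± 9.57 against 121 ± 63.5) were not called. Because the labels give no time for the sort, its difference from a culture at one time cannot be told apart from a difference in time.

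Cdc25b followed its own course through the groups. With LPS on OP9-DL1 it had 8.32, 6.76 and 6.45 scaled TPM at 20 h, 28.1, 28.4 and 28 at 44 h, and 57.2, 48.9 and 23.4 at 68 h. With LPS on OP9 it had 10, 5.24 and 3.26 at 20 h, 27.8, 29.6 and 24.4 at 44 h, and 71.8, 64.2 and 35.6 at 68 h. Levels were higher at each later time on both stromas in all libraries but the high-Actb replicate 3 on OP9-DL1 at 68 h, which lay below the 44 h libraries. With LPS on OP9-DL1 all 3 libraries at 20 h are high in Actb and none at 44 h is. Time and this property cannot be told apart in that step. Unstimulated cells held 38.2, 37.7 and 38.4 on OP9-DL1 and 22.8, 14.7 and 18.8 on OP9, and this difference was among the 20 called. Its levels in unstimulated cells thus lay above those of the 20 h LPS cultures, unlike those of Plk1 or Ccnb1.

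In the 4 groups at 68 h with 1 high-Actb library of 3, the members did not shift together in that library. Top2a, Cdc25c, Kif11, Cenpa, Birc5, Hmmr, Cdca8 and Cdca3 were highest in it in all 4 groups, and Cdk1 and Ccnf, a cyclin that acts in a ubiquitin ligase, were lowest in all 4. In at least 3 of the 4 groups 16 members were highest in it and 15 lowest. Top2a there stood at a median of 6.23 times the mean of its 2 partners and Cdc25c, a phosphatase that activates Cdk1, at 4.58 times, while Ccnf stood at 0.27, Mybl2 at 0.318 and Bub1b at 0.384. Top2a had 752 in the high-Actb library of anti-IgM on OP9, against 115 and 89.6 in its partners. Cdc25c had 62.8 there, against 10.7 and 10.4. The summed level of the 40 genes was 3320 in that library, against 3440 and 3390 in its partners, with LPS on OP9-DL1, and 4580, against 4430 and 4430, with LPS on OP9. It was 3400, against 2810 and 2880, with anti-IgM on OP9, and 727, against 273 and 329, in unstimulated cells on OP9.

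**Figure D5:**
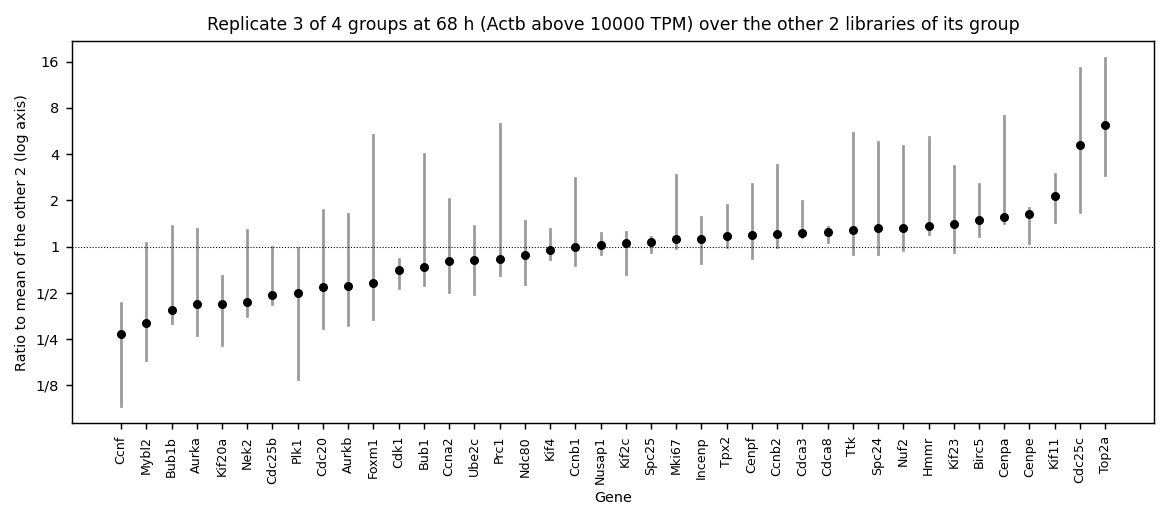
Level of each of the 40 members in the high-Actb replicate 3 divided by the mean of the other 2 libraries of its group (log axis), with a point at the median and a bar over the range of the 4 groups at 68 h that hold 1 such library. The bar of Top2a spans 2.93 to 16.9 and that of Ccnf 0.0916 to 0.429, on either side of 1.

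Other genes of the cell cycle were counted from lists, to set the 40 members beside their surroundings, and the share of all genes called in the same comparison is given with each count. Of 88 further mitosis genes 22 were called higher and 2 lower on OP9-DL1 than on OP9 in unstimulated cells, against 8.59% and 18.2% of all genes. At 20 h 12 were called higher and 2 lower with LPS, against 3.84% and 4.75%, and 27 and 1 with anti-IgM, against 9.68% and 10.4%. The calls were 0 in either direction in the 4 comparisons at 44 and 68 h, where 0, 4, 1 and 14 had an unadjusted p below 0.05 (LPS at 44 h, LPS at 68 h, anti-IgM at 44 h and anti-IgM at 68 h). At 68 h on OP9 67 rose with LPS and 0 fell, against 9.97% and 21.2% of all genes, and 61 rose with anti-IgM and 2 fell, against 7.97% and 16.4%. Of 40 DNA replication genes 35 rose with LPS on OP9 and 32 with anti-IgM, and 0 fell, beside the same shares of all genes. Between 44 and 68 h with LPS, 15 replication genes were called lower on OP9-DL1 and 13 on OP9, and 0 higher, against 5 and 1 of the 40 mitosis genes and 3.37% and 3.73% of all genes called lower. In Blimp1+ cells 11 replication genes were called lower than in the culture at 44 h and 0 higher, against 4.43% and 7.86% of all genes. The 15 genes of the D and E cyclins and their kinases, which act before replication, had 6 called higher and 1 lower with LPS on OP9. The 14 genes of the DREAM complex and the APC/C core, which act on the members rather than in the spindle, had 3 called higher and 0 lower there, where 9.97% and 21.2% of all genes were. Of 16 cell cycle inhibitors 1 was called higher and 4 lower in the same comparison, shares close to those of all genes. Between 44 and 68 h with LPS on OP9 5 of them were called higher and 1 lower, against 3.15% and 3.73% of all genes.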

How the data were processed

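PolyA RNA of sorted B cells from 15 groups of 3 libraries was measured by RNA sequencing. The deposited table holds TPM, which the authors made with kallisto on GRCm38 (mm10), per the submitters' processing notes, without versions. A second deposited table holds log2 values, which the authors scaled to library size, and was used for depth and as an alternative. The 40 members, the other gene lists and the tests were chosen with earlier results of these data known.

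Each library was divided by a median-ratio size factor (0.418 to 1.33) from 7096 genes that reached 1 TPM in every one of the 45 libraries. Genes reaching 1 TPM in 3 or more libraries were tested with limma 3.58.1 (R 4.3.3) on log2(scaled TPM + 1), which understates changes of low genes. The fit used 15 group means, a mean-variance trend and robust moderation. The test called adjusted p below 0.05 by Benjamini-Hochberg over 15614 genes, in 23 pairs of groups and 4 differences of differences. Genes were named by rule: in each pair the 2 called members with the largest increase and the 2 with the largest decrease whose libraries do not overlap between groups, Plk1, Ccnb1, Mki67, Aurkb and Foxm1 throughout, and for differences of differences the 2 largest in each direction. Members outside it (Cdc25b in all groups, Top2a, Cenpa, Cdk1 and Cdc25c by library, and the genes called without the high-Actb libraries) were chosen after their values were seen. Same-numbered libraries deviated together, every correlation over 0.1, in 4 of 23 pairs, where a replicate block left the counts as they were. In each of these pairs replicate 3 of both groups is a high-Actb library. Pairing of replicates and this shared property cannot be told apart there. The fit was tested on simulated data. Alternatives were TPM and log2 values as deposited, a pseudocount of 0.1, no filter, a replicate block, only the groups compared, each library left out, and no high-Actb libraries (above 10000 TPM of Actb). Shares of all genes called are those of the main fit, and none is given beside the counts of an alternative.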

Additional observations from a re-analysis of the deposited data

Results flagged for a closer look

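The ligand effect at 68 h with LPS, and for 1 member with anti-IgM, differed from that in unstimulated cells by a test of the difference itself. Set against unstimulated cells, the effect with LPS was lower for 20 members, with Plk1 at -4.20 and Cdc20 at -2.82 on the log2 scale (limma, called at an adjusted p below 0.05). The effect with anti-IgM was lower than that in unstimulated cells for 1 member, Ccnb2, at -1.17. Between LPS and anti-IgM 0 members differed in their ligand effect at 68 h by limma, and 20 had an unadjusted p below 0.05. Both tests against unstimulated cells include those on OP9, whose 3 libraries held 0.144 to 1.98% stromal transcripts, and the part of these was not tested.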

How the results depend on the processing

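Calls against unstimulated cells on OP9 held in every library left out (40 of 40 with LPS, 39 to 40 with anti-IgM), and other counts moved. Depth of 3070000 reads and more, 3 libraries a group and 10 high-Actb libraries limit what could be called. Of the values of named genes under the alternatives, 649 of called genes kept their call, 155 lost it and 0 turned sign, and of uncalled genes 35 turned sign. The cause was not tested for any of these.

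With TPM as deposited the count was 6 for the ligand effect with LPS at 20 h and 1 with anti-IgM at 68 h, 0 and 1 for LPS against anti-IgM on OP9 at 44 and 68 h, 0 for anti-IgM on OP9-DL1 at 44 against 20 h, 0 and 2 for LPS at 68 against 44 h on OP9 and OP9-DL1, and 0 for Blimp1+ cells against 68 h. With the authors' log2 table these were 31 for the unstimulated ligand effect, 7 with LPS at 20 h, 20 for LPS against unstimulated on OP9-DL1, 0 and 1 for LPS against anti-IgM on OP9, 0 for anti-IgM at 44 against 20 h, 0 for LPS on OP9 at 68 against 44 h, and 0 for Blimp1+ cells against 68 h. Without the filter LPS against anti-IgM on OP9 at 44 h and LPS on OP9 at 68 against 44 h gave 0. With a pseudocount of 0.1 the ligand effect with anti-IgM at 68 h gave 1, LPS against anti-IgM on OP9 at 44 h and LPS on OP9 at 68 against 44 h 0 each, and the anti-IgM minus unstimulated difference 2. With the replicate block LPS against anti-IgM gave 0 on OP9 at 44 h and 2 on OP9-DL1 at 68 h, the LPS minus anti-IgM difference at 68 h gave 1 and anti-IgM minus unstimulated 2, and it changed no other call count by over 1.5 times.

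With only the groups compared the ligand effect gave 3 unstimulated, 4 and 6 at 20 h with LPS and anti-IgM, and 10 and 0 with anti-IgM at 44 and 68 h. Anti-IgM against unstimulated on OP9 gave 15 and LPS on OP9-DL1 16. LPS against anti-IgM gave 24 and 0 on OP9 and 14 and 0 on OP9-DL1 at 44 and 68 h. The time steps gave 0 (LPS on OP9, 44 against 20 h), 27 (anti-IgM on OP9-DL1), and at 68 against 44 h 0 and 1 with LPS on OP9 and OP9-DL1 and 2 with anti-IgM on OP9-DL1. Blimp1+ cells gave 24 and 0 against 44 and 68 h, and the differences of effects 2 (LPS minus anti-IgM, 44 h), 5 (LPS minus unstimulated) and 0 (anti-IgM minus unstimulated). Without high-Actb libraries the counts were 34 for the unstimulated ligand effect, 1 and 7 with anti-IgM at 44 and 68 h, 8 for LPS against anti-IgM on OP9 at 44 h, 1 and 4 on OP9-DL1 at 44 and 68 h, 22 for anti-IgM at 44 against 20 h, 2 and 8 for LPS at 68 against 44 h on OP9 and OP9-DL1, 11 and 2 for Blimp1+ cells, 3 for LPS minus anti-IgM at 68 h and 18 for anti-IgM minus unstimulated. The ligand effect at 20 h has no value there, since a group is empty.

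Leaving out 1 library at a time gave 16 to 29 calls for the unstimulated ligand effect, 8 to 14 and 13 to 20 at 20 h with LPS and anti-IgM, and 0 to 3 with anti-IgM at 68 h. It gave 27 to 35 and 36 to 38 for LPS and anti-IgM against unstimulated on OP9-DL1, 0 and 1 to 4 for LPS against anti-IgM on OP9 at 44 and 68 h, and 0 to 4 on OP9-DL1 at 68 h. The time steps gave 16 to 25, 1, 0 to 1 (LPS on OP9, 68 against 44 h) and 0 to 8 (LPS on OP9-DL1). Blimp1+ cells gave 2 to 3 and 0 to 1, and the differences of effects 0 to 2, 15 to 25 and 0 to 10.

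The uncalled values that turned sign were these. Mki67 in the ligand effect with LPS at 44 h was -0.03 (TPM), -0.01 (log2 table) and -0.05 to 0.11 by library left out, and Foxm1 by library -0.19 to 0.52 at 20 h and -0.64 to 0.14 at 68 h. In LPS against anti-IgM on OP9 at 68 h Mki67 was 0.12, 0.13 and -0.12 to 0.05, and Foxm1 -0.57 to 0.08. For LPS at 68 against 44 h Mki67 was -0.02 on OP9 (log2 table) and -0.15 to 0.10 on OP9-DL1, and Foxm1 0.19 without high-Actb libraries and -0.50 to 0.19. For anti-IgM on OP9-DL1 at 68 against 44 h Plk1 was -0.13, -0.05 and -0.06 to 0.05, and Aurkb -0.12, -0.04 and -0.05 to 0.11. For Blimp1+ cells against 68 h Ccnb1 was 0.10 (log2 table) and -0.18 to 0.04, Plk1 -0.02 without high-Actb libraries and -0.02 to 0.67, and Aurkb -0.00 and -0.00 to 0.88.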
